A study of Mus musculus with 18 samples.

Results

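The genes described here carry glucose into the muscle fibre, break it down to pyruvate and lactate, and store or release it as glycogen. They are 34 genes listed by symbol, of 41388 annotated features, and all 34 were found in the count tables and passed the filter on low counts in every comparison. RNA was taken from the gastrocnemius, a mostly fast-twitch calf muscle, and from the soleus, a neighbouring muscle rich in slow fibres. All mice were 12 weeks old, ate standard chow, were fasted for 4 h before harvest, and carried the Site-1 Protease floxed allele (gene Mbtps1). The knockout groups also carried HSACre+, a Cre recombinase under the human skeletal actin promoter. That promoter works in muscle fibres, so other cells of the muscle would keep the gene. The control label names no Cre, so an effect of Cre itself and an effect of the deletion cannot be told apart. The titles give 5 control and 4 knockout libraries per muscle (18 altogether), although the study's design text says 4 per group. No label says whether the libraries came from separate mice, and the p-values measure the spread between these libraries, which may be partly technical. The titles number the gastrocnemius libraries 1 to 9 and the soleus libraries 34 to 42, with controls and knockouts in the same order, but no label says whether a gastrocnemius and a soleus library came from one mouse. The comparisons between muscles below treat the libraries as independent.

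In skeletal muscle, glucose enters through Slc2a4, the transporter that insulin and contraction bring to the cell surface, and through the basal transporter Slc2a1. Fast fibres rely on glycolysis and on glycogen broken down by phosphorylase, and they export lactate. Slow fibres take up lactate and oxidise it. The lactate dehydrogenase subunits differ likewise: the A subunit is the form abundant in glycolytic fibres, and the B subunit is the form abundant in oxidative fibres and heart. The lactate carriers differ too, with Slc16a3 (MCT4) known for export from fast fibres and Slc16a1 (MCT1) for uptake in oxidative ones.

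Libraries held 39.0 to 78.2 M counts. The 34 genes together took 4.14 to 4.65% of all counts in gastrocnemius controls, 4.10 to 4.96% in gastrocnemius knockouts, 1.65 to 1.89% in soleus controls and 1.77 to 2.17% in soleus knockouts. Fibre-type markers matched the tissue labels: all 11 slow-fibre genes were higher in soleus controls, and 10 of 11 fast-fibre genes were lower. Here and below, the slow-fibre list also counts Myh2, a myosin of fast oxidative fibres. Mbtps1 itself ran from 29.6 to 34.9 CPM (counts scaled to a common library size, here after TMM scaling) in gastrocnemius controls and from 34.7 to 42.8 in the libraries labelled knockout, and from 30.5 to 34.4 against 31.0 to 36.3 in the soleus. Its whole-gene count was thus no lower in the libraries labelled knockout, and reads outside the deleted part of the gene count towards it. Every knockout direction below is that of the library labels. In 3 gastrocnemius libraries (control 3, knockout 2 and knockout 6) the giant titin transcript Ttn took 11.27 to 12.56% of counts, against 6.76 to 9.19% in the other gastrocnemius libraries. Control 3 had the lowest level of its group for 20 of the 34 genes and knockout 2 for 19.

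TMM, the trimmed mean of M-values, sets the library sizes behind every CPM. Levels of different genes are set side by side only per kilobase of gene length. In gastrocnemius controls the most abundant member was Aldoa, the aldolase of muscle, at 4842 ± 397 CPM per kilobase (SD, n = 5). Muscle glycogen phosphorylase, Pygm, followed at 2834 ± 113, then Gapdh at 2381 ± 145, the muscle enolase Eno3 at 2220 ± 102 and the muscle phosphoglycerate mutase Pgam2 at 1549 ± 78.2. Gapdh and Eno3 lay close, and the muscle phosphofructokinase Pfkm at 1016 ± 70.2 and the pyruvate kinase Pkm at 1000 ± 54.0 CPM per kilobase differed by less than their spread. At the bottom were the platelet-type phosphofructokinase Pfkp at 0.757 ± 0.0858, hexokinase Hk1 at 1.75 ± 0.154 and the liver-type phosphofructokinase Pfkl at 2.80 ± 0.244. In soleus controls Aldoa again led, at 1188 ± 162 CPM per kilobase, followed by Gapdh at 766 ± 89.8. Below them Pygm, Eno3 and Pgam2 lay within their spread of each other at 593 ± 66.4, 618 ± 82.3 and 577 ± 21.6. Ldhb stood sixth there, at 447 ± 54.7, whereas in the gastrocnemius it stood at rank 21 of 34.

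Most members differed between the 2 control muscles. In the soleus 20 of 34 were lower and 10 higher than in the gastrocnemius (edgeR quasi-likelihood test, Benjamini-Hochberg adjusted p under 0.05 over all genes), and 18 of the 20 were lower by at least 2-fold. Over all 18494 genes tested, 49.3% were called, 21.9% lower and 27.4% higher, and 5.41% were lower by at least 2-fold. The median log2 fold change (soleus minus gastrocnemius) was -1.17 over the members and 0.08 over all genes. Groups did not overlap for 21 members that were lower and 6 that were higher, against 17% and 19.7% of all genes. Scaling by library totals in place of TMM raised the median of all genes to 0.35 and the share of calls that were higher from 55.6% to 79.8%, and with it 18 members were lower and 12 higher. In bulk tissue, fewer fast fibres and less RNA per fibre cannot be told apart. Markers of other cells differed too: 6 of 7 endothelial genes were higher in the soleus. Lower were 4 of 6 fibroblast genes, 4 of 6 nerve and Schwann-cell genes and 2 of 6 macrophage genes. Of red blood cell and satellite-cell genes 1 of 5 each was higher, and 0 of 7 adipocyte genes were called. Their part in the member values was not tested.

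**Figure D1:**
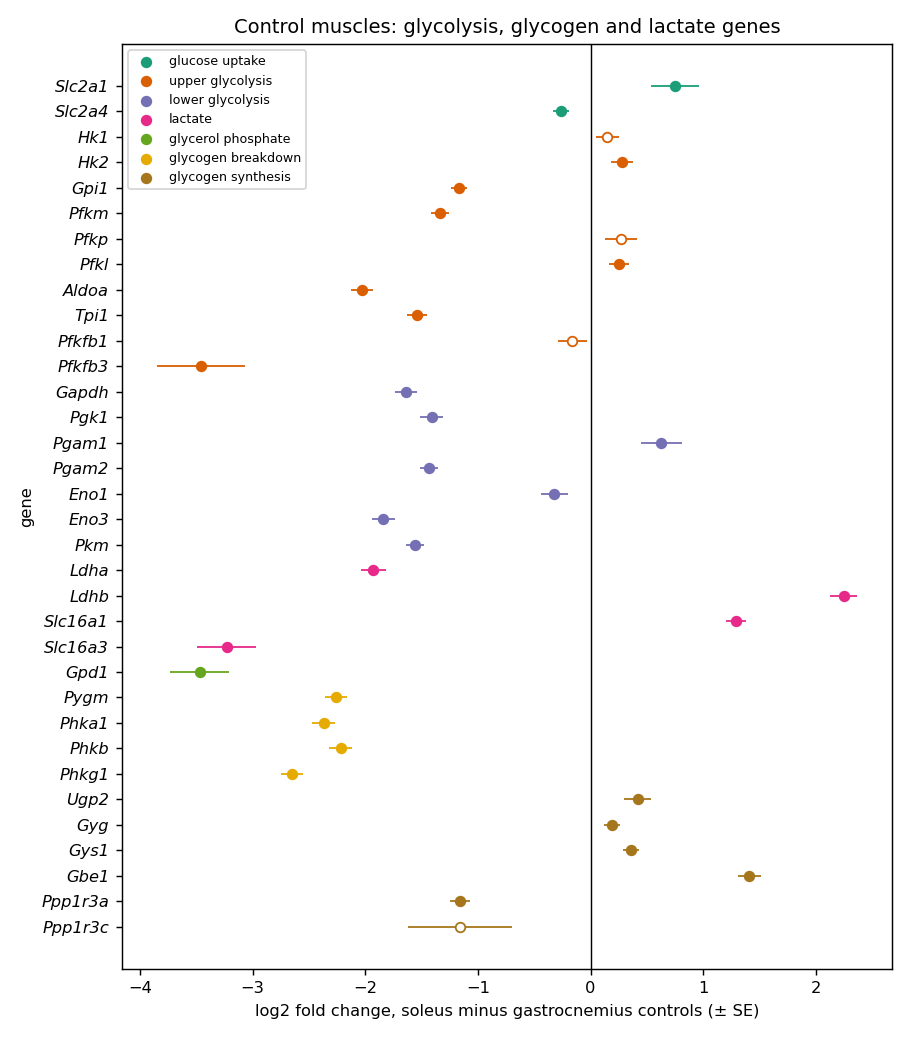
Log2 fold change of each of the 34 genes between control muscles, soleus minus gastrocnemius, with its standard error, coloured by role; filled points passed an adjusted p of 0.05 and open points did not. Glycogen breakdown genes all lie between -2.65 and -2.22, while Ldhb lies at 2.25.

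Glycogen breakdown was the role with the most uniform difference: all 4 members were lower in the soleus, with a median log2 fold change of -2.31. Pygm, which releases glucose units from glycogen, had 8487, 9199, 9203, 9316 and 9394 CPM in gastrocnemius controls and 1688, 1782, 1796, 2090 and 2178 in soleus controls. Its fold change was -2.26 ± 0.10 (log2, SE; edgeR adjusted p = 3.37e-14). The other members are subunits of phosphorylase kinase, the enzyme that switches phosphorylase on. Its catalytic subunit Phkg1 had 327, 339, 346, 347 and 357 CPM in the gastrocnemius against 46.7, 48.1, 52.3, 61.3 and 65.9 in the soleus (-2.65 ± 0.10). The regulatory subunit Phka1 had 736, 786, 806, 881 and 919 CPM against 140, 142, 162, 171 and 184 (-2.37 ± 0.10). For Phkb the levels were 340, 342, 353, 358 and 408 CPM against 69.2, 71.8, 77.9, 82.3 and 85.7 (-2.22 ± 0.10). In each of these genes the highest soleus library lay far below the lowest gastrocnemius library.

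Glycogen synthesis genes did not follow: 4 of 6 were higher in the soleus and 1 was lower. Gbe1, the branching enzyme, rose from 41.7 ± 4.31 to 111 ± 9.78 CPM (SD, n = 5 each; log2 fold change 1.41 ± 0.10). Smaller rises were found for the muscle glycogen synthase Gys1 (0.36 ± 0.07), for Ugp2, which makes the UDP-glucose that the synthase uses (0.42 ± 0.12), and for glycogenin, Gyg, which primes the particle (0.19 ± 0.07). Ppp1r3a, the muscle subunit that holds protein phosphatase 1 on glycogen, fell by 1.16 on the log2 scale, from 558 ± 46.0 to 250 ± 23.5 CPM. The related targeting subunit Ppp1r3c had the same fitted difference, -1.16 ± 0.46, with an adjusted p of 0.0506. Its levels of 505 to 906 and 212 to 435 CPM were more scattered but did not overlap. It was called lower in 11 of 25 alternatives, among them DESeq2 and the fit of the 10 control libraries only. The call of Ugp2 was lost without the 3 libraries of high Ttn share (adjusted p = 0.0525). That of Gyg was lost in 8 of 25 alternatives: there too (0.239), with DESeq2 (0.107), with RLE factors (0.108), and without gastrocnemius control 3 (0.0876) or 4 (0.0663), gastrocnemius knockout 7 (0.0935) or soleus control 37 (0.0575) or 38 (0.0562).

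Of the 10 genes of upper glycolysis and its control, 5 were lower in the soleus and 2 were higher. Aldoa had 11458, 13523, 13614, 13768 and 14318 CPM in gastrocnemius controls and 2783, 2903, 3240, 3606 and 3827 in soleus controls (-2.03 ± 0.10). Pfkfb3, a bifunctional enzyme that makes the allosteric activator of phosphofructokinase, had 146, 159, 192, 274 and 425 CPM against 15.5, 15.7, 16.7, 20.8 and 40.0 (-3.46 ± 0.39). Its coefficient of variation, 48.1% in gastrocnemius and 48.0% in soleus controls, was the highest of the 34 genes in both groups, yet the muscles did not overlap. Its paralog Pfkfb1 did not pass the test, with 31.6, 37.7, 40.1, 43.6 and 45.7 CPM against 28, 30, 35.5, 35.9 and 48.6 (-0.16 ± 0.13), and library totals turned its sign to 0.10. Pfkfb1 shares 123 bases with Apex2 on the other strand, whose mean count was 40.2% of its own, and Pfkp shares 372 bases with Pitrm1, whose mean count was 351% of its own. The counting may or may not have used strand, which no source used here states, so both values are uncertain.

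Pfkm carried nearly all phosphofructokinase RNA in both muscles, and it was the isoform that differed most. Its levels were 2705, 2881, 3109, 3114 and 3215 CPM in the gastrocnemius and 1095, 1136, 1192, 1233 and 1272 in the soleus (-1.34 ± 0.08). Pfkl had 11.1, 11.3, 12.6, 12.9 and 13.6 CPM against 14.1, 14.2, 14.4, 14.9 and 15.7, a small rise of 0.25 ± 0.09 that lost the call in 7 of 25 alternatives. Among these were the fits without gastrocnemius control 3 (adjusted p = 0.0572) or 8 (0.0601), gastrocnemius knockout 7 (0.0573) or soleus control 38 (0.0548). Pfkp, at 6.00, 7.02, 7.05, 7.20 and 8.27 against 7.37, 7.87, 7.89, 8.38 and 11.4 CPM, did not pass the test. As a share of the family per kilobase, Pfkm made up 99.6 to 99.7% in gastrocnemius and 98.9 to 99.1% in soleus controls. Gpi1, the isomerase before this step, and Tpi1, the triose isomerase after it, were also lower, by -1.17 ± 0.07 and -1.54 ± 0.09.

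The hexokinases trap glucose inside the cell, and neither was lower in the soleus. Hk2, the insulin-responsive form, had 569, 570, 588, 602 and 666 CPM in the gastrocnemius and 620, 672, 705, 707 and 939 in the soleus, a rise of 0.28 ± 0.10 (adjusted p = 0.0297) with overlapping groups. That call was lost in 7 of 25 alternatives, among them those without gastrocnemius control 1 (0.0643), 3 (0.0515) or 8 (0.0635) or soleus control 34 (0.129). Hk1 had 13.6, 13.7, 14.9, 15.7 and 16.7 CPM against 15.2, 15.8, 16, 17.7 and 18.1 and did not pass the test.

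Of the 2 glucose transporters among the members, Slc2a4 was lower and Slc2a1 higher in the soleus. Slc2a4 had 413, 421, 461, 470 and 477 CPM in gastrocnemius controls and 352, 373, 381, 385 and 386 in soleus controls (-0.26 ± 0.07, adjusted p = 0.003), with no overlap, but library totals turned the sign to 0.01. Slc2a1 was the minor form, at 10.9, 11.4, 11.7, 12.2 and 13.7 CPM against 11.2, 17.5, 19.0, 23.5 and 29.5, and rose by 0.75 ± 0.21. Soleus control 41 was the library that lay within the gastrocnemius range.

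In lower glycolysis 6 of 7 members were lower in the soleus, and the exception was the minor isoform Pgam1. Gapdh fell by 1.64, Pkm by 1.56 and Pgk1, the first ATP-producing step, by 1.41 on the log2 scale. Eno3 had 3589, 3819, 3852, 4003 and 4036 CPM against 882, 960, 1161, 1183 and 1187 (-1.84 ± 0.10). Its ubiquitous paralog Eno1 had 44.9, 49.3, 49.4, 49.7 and 51.7 against 36.5, 38.1, 39.2, 39.6 and 43.3 CPM, a fall of only 0.32 on the log2 scale that lost the call in 10 of 25 alternatives. Among these were the fits without gastrocnemius control 1, 4, 5 or 8 or soleus control 34, 36, 38 or 41 (adjusted p 0.0565 to 0.0758). Library totals in place of TMM moved Eno1 most, to -0.05 (adjusted p = 0.769). Pgam2 had 1193, 1291, 1324, 1337 and 1362 CPM against 464, 477, 478, 491 and 512 (-1.43 ± 0.08). Pgam1 had 5.35, 5.42, 5.45, 5.93 and 6.00 CPM against 5.26, 7.49, 8.83, 10.5 and 11.4, which overlapped through soleus control 41 (0.63 ± 0.18). Its pseudogenes in the tables held a mean count equal to 3.26% of that of Pgam1, and how reads that match both were counted is not stated.

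The lactate genes split into opposite pairs. Ldha, on chromosome 7 at 46841475 to 46855627 (GRCm38, plus strand), had 1635, 1747, 1849, 1852 and 2005 CPM in gastrocnemius controls and 434, 443, 497, 506 and 510 in soleus controls (-1.93 ± 0.11). Ldhb, on chromosome 6 at 142490249 to 142507957 (minus strand), had 121, 136, 140, 166 and 176 CPM against 631, 645, 649, 764 and 823 (2.25 ± 0.12). Per kilobase, Ldhb made up 13.3 ± 1.36% of the pair's RNA in the gastrocnemius and 73.4 ± 3.71% in the soleus (SD, n = 5 each). The carriers showed the same arrangement. Slc16a3, on chromosome 11 at 120948480 to 120960868 (plus strand), had 375, 403, 403, 426 and 430 CPM against 29.5, 35.6, 40.0, 55.0 and 56.5 (-3.23 ± 0.26). Slc16a1, on chromosome 3 at 104638668 to 104658462 (plus strand), had 37.6, 38.8, 39.8, 40.7 and 45.9 CPM against 82.9, 86.9, 92.8, 112 and 120 (1.29 ± 0.09). Slc16a1 made up 10.7 ± 1.05% of the 2 carriers' RNA per kilobase in the gastrocnemius and 73.4 ± 5.70% in the soleus. The muscles did not overlap for any of these 4 genes, nor for either share.

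**Figure D2:**
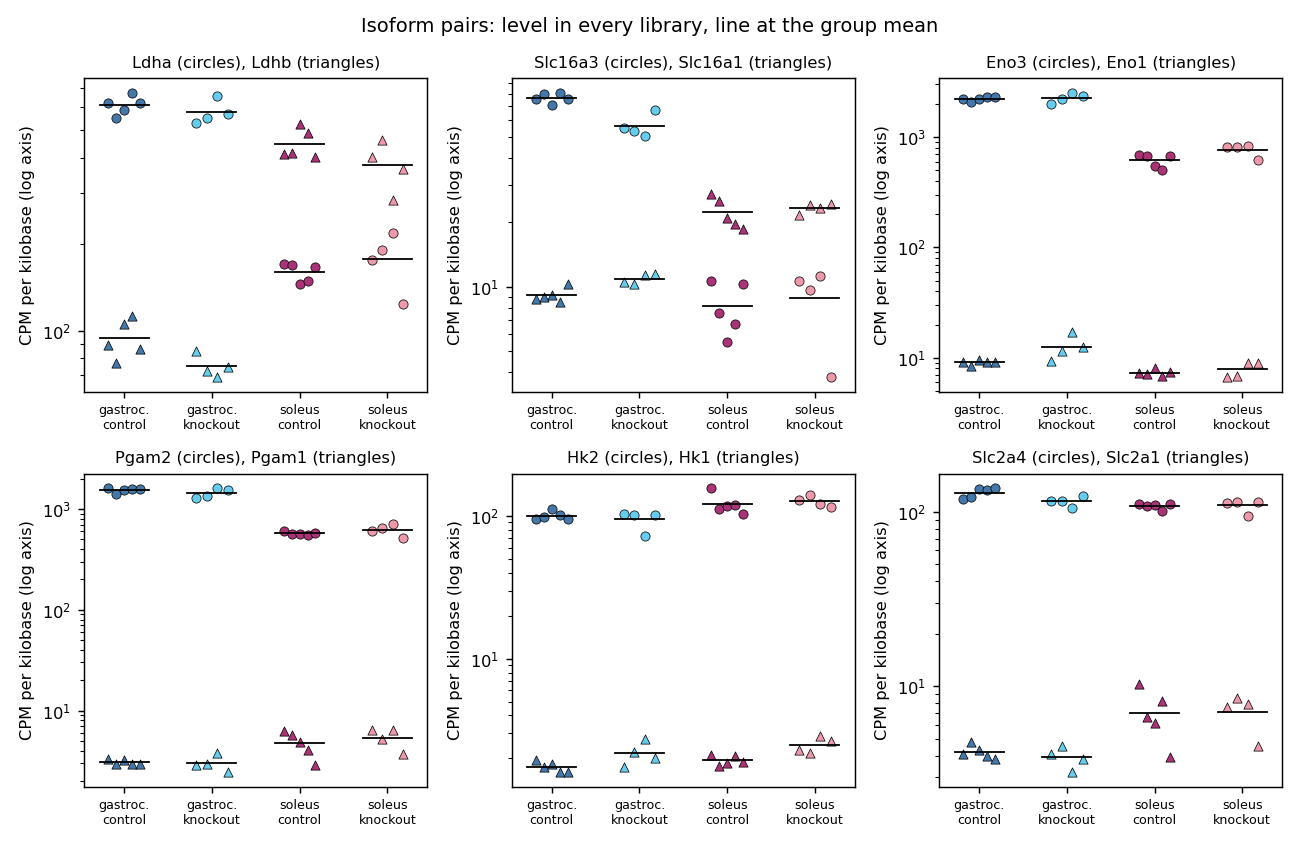
Levels (CPM per kilobase, log axis) of 6 isoform pairs in each of the 18 libraries by muscle and genotype, circles for the first and triangles for the second gene, with lines at group means. Ldhb makes up at most 15.2% of its pair in any gastrocnemius library and at least 56.5% in any soleus library, and Slc16a1 at most 18.2% and at least 64.4%. Eno3, Pgam2, Hk2 and Slc2a4 are the major form of their pair in both muscles.

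Gpd1 and Pfkfb3 had the largest falls of any member, and their fold changes of -3.47 and -3.46 did not differ beyond their errors. That of Slc16a3, -3.23, did not differ from them beyond the errors either. Gpd1 is the cytosolic glycerol-3-phosphate dehydrogenase that passes glycolytic reducing power to mitochondria. Gpd1 levels were 380, 421, 435, 441 and 453 CPM in gastrocnemius controls and 28.1, 33.6, 36.6, 41.6 and 51.9 in soleus controls (-3.47 ± 0.26, adjusted p = 2.26e-08). Its mitochondrial partner Gpd2, which is not among the 34, differed almost as much, from 161 ± 11.8 to 19.7 ± 3.19 CPM (-3.03 ± 0.14). Among 62 further tested genes of glycolysis, pyruvate and lactate handling and glycogen, 20 were higher and 26 lower in the soleus, with a median of -0.21. Over all genes tested, 27.4% were higher and 21.9% lower, with a median of 0.08. The gene of the pathway lists with the largest fold was Prkag3, the regulatory subunit of AMP-activated kinase found mainly in fast muscle, at -3.85 ± 0.16. It was followed by Gpd2, the mitochondrial alanine aminotransferase Gpt2 (-2.91 ± 0.26), the glucose-6-phosphate carrier Slc37a4 (-2.69 ± 0.13), the high-affinity glucose transporter Slc2a3 (-2.63 ± 0.19) and the phosphoglucomutase Pgm1 (-2.58 ± 0.11).

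Sequences upstream of the starts are shown for the 4 lactate genes, which differed in opposite directions, and for Pgam2 and Pygm, muscle isoforms that were lower in the soleus. Each line gives the 250 bases before a RefSeq start (GRCm38.p6), 5′ to 3′ on the strand of the gene. Capitals mark matches on either strand to ACGTG, the core bound by hypoxia-inducible factors among others, to the E-box CAGCTG, of the kind bound by myogenic factors, to a second E-box with the letters CAGGTG and to the MEF2 motif. They lie at chr7:46845554-46845803 (plus strand), chr6:142507958-142508207 (minus strand), chr11:120948817-120949066 (plus strand), chr3:104638414-104638663 (plus strand), chr11:5803797-5804046 (minus strand) and chr19:6384158-6384407 (plus strand). Ldha has 2 starts in the table and the upstream one is shown.
Ldha: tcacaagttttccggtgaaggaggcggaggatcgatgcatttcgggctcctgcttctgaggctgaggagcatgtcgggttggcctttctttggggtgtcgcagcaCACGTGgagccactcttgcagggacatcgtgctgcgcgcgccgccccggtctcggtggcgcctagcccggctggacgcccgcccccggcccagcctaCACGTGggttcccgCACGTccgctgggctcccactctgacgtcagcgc
Ldhb: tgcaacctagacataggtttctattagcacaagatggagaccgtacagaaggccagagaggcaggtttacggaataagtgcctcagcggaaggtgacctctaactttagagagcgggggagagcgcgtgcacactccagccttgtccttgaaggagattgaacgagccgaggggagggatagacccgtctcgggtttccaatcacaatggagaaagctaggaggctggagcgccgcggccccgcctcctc
Slc16a3: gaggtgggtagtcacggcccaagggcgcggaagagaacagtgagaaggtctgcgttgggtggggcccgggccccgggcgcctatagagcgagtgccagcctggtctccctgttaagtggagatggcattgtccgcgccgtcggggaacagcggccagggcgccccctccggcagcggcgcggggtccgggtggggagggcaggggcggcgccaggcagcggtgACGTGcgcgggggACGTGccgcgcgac
Slc16a1: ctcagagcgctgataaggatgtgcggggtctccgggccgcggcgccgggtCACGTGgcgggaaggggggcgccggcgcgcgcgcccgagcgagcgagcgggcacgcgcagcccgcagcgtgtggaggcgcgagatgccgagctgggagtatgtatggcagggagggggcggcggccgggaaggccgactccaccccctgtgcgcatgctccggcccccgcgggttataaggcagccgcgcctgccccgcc
Pgam2: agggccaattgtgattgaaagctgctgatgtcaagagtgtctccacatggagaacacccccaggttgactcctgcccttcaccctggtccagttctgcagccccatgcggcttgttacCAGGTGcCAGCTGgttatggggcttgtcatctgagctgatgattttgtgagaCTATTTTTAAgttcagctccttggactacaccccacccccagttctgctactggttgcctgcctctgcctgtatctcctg
Pygm: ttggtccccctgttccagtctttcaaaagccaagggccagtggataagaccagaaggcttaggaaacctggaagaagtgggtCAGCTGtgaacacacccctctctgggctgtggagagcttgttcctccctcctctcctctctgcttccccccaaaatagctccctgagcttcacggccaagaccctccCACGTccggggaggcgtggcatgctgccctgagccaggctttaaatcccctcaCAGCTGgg
Ldha held 3 separate matches to ACGTG, Slc16a3 held 2 and Slc16a1 and Pygm 1 each, whereas the Ldhb window held none of the marked motifs. Pgam2 held 1 match to each E-box and 1 to the MEF2 motif, and Pygm held 2 to CAGCTG. Over the 47 windows of the 32 members in the table, ACGTG was present in 36.2%, against 16.6% of all 32851 windows of that length. It was present in 8 of the 18 genes lower in the soleus and in 5 of the 10 that were higher. CAGCTG was present in 21.3% of member windows against 13.0% of all, CAGGTG in 14.9% against 17.2%, and the MEF2 motif in 6.38% against 1.69%. The motif CATTCC was found in 8.51% against 12.6%, and TCAGGTTTC in 0 of 47 against 0.387%. None of these motifs contains another, and a match is a description of letters in this window.

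In the gastrocnemius, the libraries labelled knockout had lower levels of 2 of the 34 genes, the lactate exporter Slc16a3 and glycogenin, Gyg, and no member was higher. Over all 16393 genes tested, 3.78% were called, 2.01% lower and 1.77% higher, so that 2 of 34 is near that background. Members had a median log2 fold change (knockout minus control) of -0.04, against 0.02 over all genes, and 14 were above and 20 below 0. An unadjusted p under 0.05 was reached by 10 members, and by 18.6% of all genes. With library totals in place of TMM, the share of all calls that were higher went from 46.8% to 67.6%, and 1 member was called in each direction.

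Slc16a3 had 403, 426, 375, 430 and 403 CPM in the gastrocnemius controls and 294, 286, 270 and 355 in the knockouts, which did not overlap (4.61% of all genes were lower with no overlap). Its log2 fold change was -0.43 ± 0.08 (edgeR adjusted p = 0.0117). The call was lost without knockout 6 (adjusted p = 0.0531), without the 3 libraries of high Ttn share (0.0794) and in a fit of all 18 libraries (0.399), where the spread is shared with the soleus. Its adjusted p ranged from 0.000102 to 0.399 over 16 alternatives. The other carrier, Slc16a1, had 38.8, 39.8, 40.7, 37.6 and 45.9 CPM in controls against 46.5, 45.9, 50.2 and 50.9 in knockouts (0.25 ± 0.07, adjusted p = 0.0637, under 0.05 in 3 of 16 alternatives). Slc16a1 thus made up 9.51 to 12.0% of the pair's RNA per kilobase in controls and 14.7 to 18.2% in knockouts, with no overlap. That difference in share was not tested.

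Gyg, on chromosome 3 at 20122084 to 20155317 (minus strand), had 239, 203, 221, 234 and 245 CPM in controls and 172, 177, 175 and 209 in knockouts. Knockout 9 lay above control 3, and the other 3 knockouts lay below every control. The log2 fold change was -0.31 ± 0.08 (adjusted p = 0.0368). The call was lost in 9 of 16 alternatives, among them those without control 1 (0.0946), 4 (0.0643), 5 (0.0894) or 8 (0.0847) and those without knockout 2 (0.0548), 6 (0.123) or 7 (0.0854). The number of members called was itself unsteady: it was 7, with 4 higher and 3 lower, without knockout 2, it was 0 without knockout 6, and it was 1 without control 1, 4 or 5 or without knockout 7. DESeq2 called 4, and without the 3 libraries of high Ttn share 3 were called. Neither Slc16a3 nor Gyg was among those 3 (edgeR adjusted p = 0.0794 and 0.0879).

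Eno1 had 49.3, 44.9, 51.7, 49.7 and 49.4 CPM in gastrocnemius controls and 49.8, 62.5, 91.6 and 68.0 in knockouts. Knockout 2 lay among the controls and the other 3 above them, and the test was not passed (0.47 ± 0.14, adjusted p = 0.0823), except in 4 of 16 alternatives, one being the fit without knockout 2. Ldhb had 140, 121, 166, 176 and 136 CPM against 133, 114, 108 and 117 (-0.32 ± 0.10, adjusted p = 0.108, under 0.05 in 4 of 16 alternatives). Hk1 had 16.7, 14.9, 15.7, 13.7 and 13.6 CPM against 14.8, 19.0, 23.5 and 17.3 (0.32 ± 0.12, adjusted p = 0.147, under 0.05 in 1 of 16 alternatives). The widest scatter was that of Ppp1r3c, with 906, 838, 505, 692 and 565 CPM in controls and 885, 243, 223 and 185 in knockouts 2, 6, 7 and 9. Knockout 2 lay within the control range and the other 3 well below it, and the fold change of -0.87 ± 0.52 did not pass the test (adjusted p = 0.448). The remaining members, the 4 glycogen breakdown genes among them, lay between -0.19 and 0.20, apart from Pfkfb3 at 0.58 ± 0.38. None of them passed the test.

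**Figure D3:**
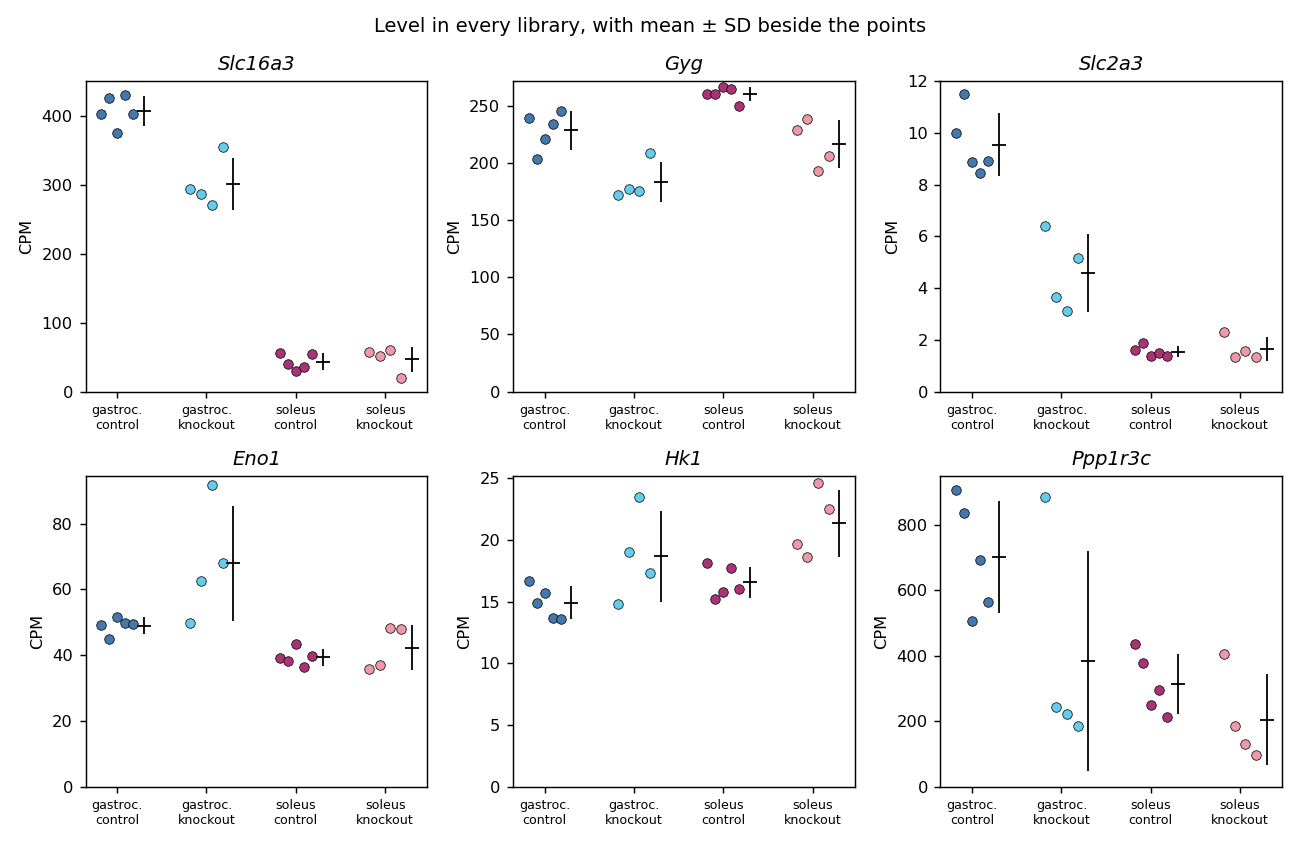
Levels (CPM) of 6 genes in each of the 18 libraries by muscle and genotype, with mean and SD beside the points. Slc16a3 and Slc2a3 do not overlap between gastrocnemius control and knockout, and Ppp1r3c in knockouts holds 1 library at 885 and 3 between 185 and 243.

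Of 61 further pathway genes tested in the gastrocnemius, 3 were lower in knockouts and none was higher. Over all genes tested, 3.78% were called, 2.01% lower and 1.77% higher. Slc2a3, a glucose transporter with high affinity, had 10, 11.5, 8.88, 8.45 and 8.94 CPM in controls and 6.42, 3.65, 3.13 and 5.15 in knockouts (-1.06 ± 0.19, adjusted p = 0.0104). It was called in all 16 alternatives, with adjusted p up to 0.0423. Gaa, the lysosomal enzyme that breaks down glycogen, had 367, 339, 386, 345 and 376 CPM against 295, 282, 308 and 312 (-0.28 ± 0.06, adjusted p = 0.03). Gsk3b, a kinase that inhibits glycogen synthase, had 179, 176, 180, 177 and 172 CPM against 149, 160, 137 and 154 (-0.24 ± 0.06, adjusted p = 0.0468). Groups did not overlap for any of these 3 genes. Of the 61 genes, 6 were lower and 3 higher with no overlap, and 4.61% of all genes were lower with no overlap. The share of all genes that were higher with no overlap is not given here, so the 3 cannot be set against it. The call of Gaa was lost in 8 of 16 alternatives, among them those without control 1, 4, 5 or 8 or without knockout 6 or 9 (adjusted p up to 0.11). The call of Gsk3b was lost in 12, among them those without any 1 of the 9 libraries (up to 0.125).

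Marker lists for fibre types and other cells were summed in the same libraries. In gastrocnemius knockouts 10 of 11 slow-fibre genes were below 0 and 1 was called lower, with a summed level of 4415 to 5613 CPM against 5273 to 6147 in controls. Of 11 fast-fibre genes 8 were below 0 and none was called. Fibroblast genes summed to 2481 to 4100 CPM against 1850 to 3075 in controls (6 of 6 above 0, 0 called), and macrophage genes to 108 to 202 against 82.7 to 118 (5 of 6 above 0, 0 called). Satellite-cell genes summed to 15.2 to 25.2 CPM against 13.1 to 15.6 (5 of 5 above 0, 1 called higher). Endothelial genes summed to 347 to 384 CPM against 339 to 367 (6 of 7 above 0, 0 called). Adipocyte genes summed to 312 to 617 CPM against 451 to 643 (7 of 7 below 0, 0 called), and nerve and Schwann-cell genes to 140 to 256 against 170 to 300 (6 of 6 below 0, 0 called). Red blood cell genes summed to 192 to 337 CPM against 160 to 328 (4 of 5 below 0, 0 called). No marker of these lists was at 0 in all libraries, and their part in the results for Slc16a3, Gyg and Slc2a3 was not tested.

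In the soleus no member was called in the knockout comparison, where 0.0553% of 18087 genes were called. An unadjusted p under 0.05 was reached by 7 members (8.19% of all genes), and DESeq2 called 1 member, Hk1. Of the 34 genes 26 were above 0, with a median of 0.11 against 0.00 over all genes. All 7 lower glycolysis and all 4 glycogen breakdown genes were above 0, and all 6 glycogen synthesis genes were below 0, without any passing the test. Slow-fibre genes were below 0 in 11 of 11 cases with 0 called, and summed to 29319 to 40563 CPM in knockouts against 40443 to 45376 in controls. Fast-fibre genes were above 0 in 8 of 11 cases, 0 called, and summed to 16574 to 33729 against 22078 to 27903. The part of fibre type in these values was not tested.

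Groups did not overlap for 2 members in the soleus, against 2.55% of all genes. Hk1 had 18.1, 15.2, 15.8, 17.7 and 16 CPM in controls and 19.7, 18.6, 24.6 and 22.5 in knockouts (0.37 ± 0.09, adjusted p = 0.234). Gyg had 260, 260, 266, 265 and 250 CPM against 229, 238, 193 and 206 (-0.26 ± 0.07, adjusted p = 0.323). The fitted difference had the same sign in both muscles for each of these genes, which are not independent observations if the muscles came from the same mice. Slc16a3 had 56.5, 40.0, 29.5, 35.6 and 55.0 CPM in soleus controls and 56.8, 51.6, 59.7 and 20.1 in knockouts, and the groups overlapped widely (0.13 ± 0.34, adjusted p = 0.958). Ppp1r3c was scattered here too, with 435, 378, 249, 297 and 212 CPM against 405, 185, 131 and 98.1 in knockouts 35, 39, 40 and 42 (-0.62 ± 0.43, adjusted p = 0.785). In each muscle its highest knockout was the one of lowest number, 2 in the gastrocnemius and 35 in the soleus. The scatter in the soleus is thus no independent observation if the muscles came from the same mice.

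**Figure D4:**
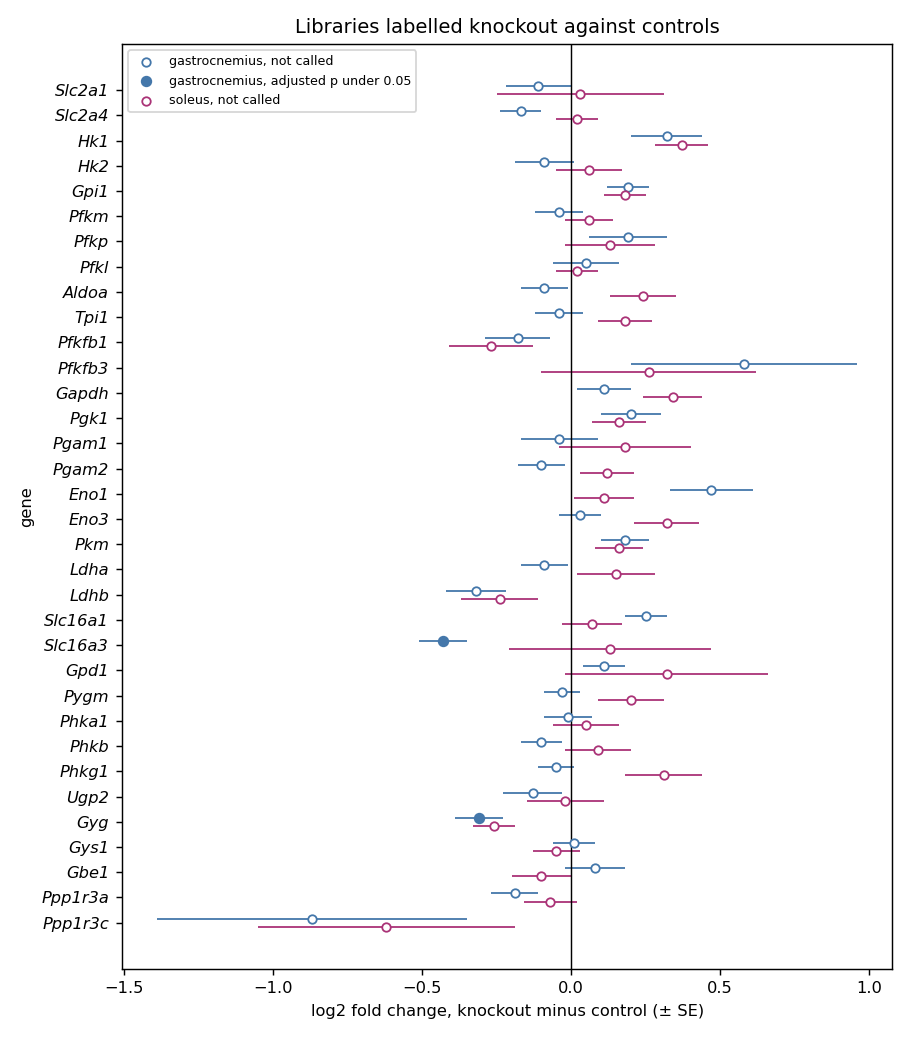
Log2 fold change of each of the 34 genes, knockout minus control, in the gastrocnemius (blue) and the soleus (purple), with standard errors; filled points passed an adjusted p of 0.05. The filled points are Slc16a3 at -0.43 and Gyg at -0.31 in the gastrocnemius, and the widest bars belong to Ppp1r3c and Pfkfb3.

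Soleus libraries differed among themselves in fast-fibre RNA, and some members were low in the same libraries. Myh4, the myosin of the fastest fibres, had 1507, 1642, 127, 2020 and 4440 CPM in soleus controls 34, 36, 37, 38 and 41, and 4413, 3962, 5617 and 223 in knockouts 35, 39, 40 and 42. In knockout 42, 23 of the 34 members had the lowest level of their group. In control 37, where Myh4 was lowest of all, that held for only 9 of 34, against 11 in control 38 and 9 in control 41. Gpd1 was at 28.1 CPM in control 37 and 19.6 in knockout 42, the 2 libraries of lowest Myh4, and at 33.6 to 65.5 in the other 7. Slc16a3 was likewise lowest in these 2 libraries, at 29.5 and 20.1 CPM, and lay between 35.6 and 59.7 in the others. Ldhb had its highest level, 823 CPM, in control 37 and its lowest, 446 CPM, in knockout 40, where Myh4 was highest, but in knockout 42 it was at 573. Without knockout 42, as in every fit that left out 1 library, 0 members were called.

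**Figure D5:**
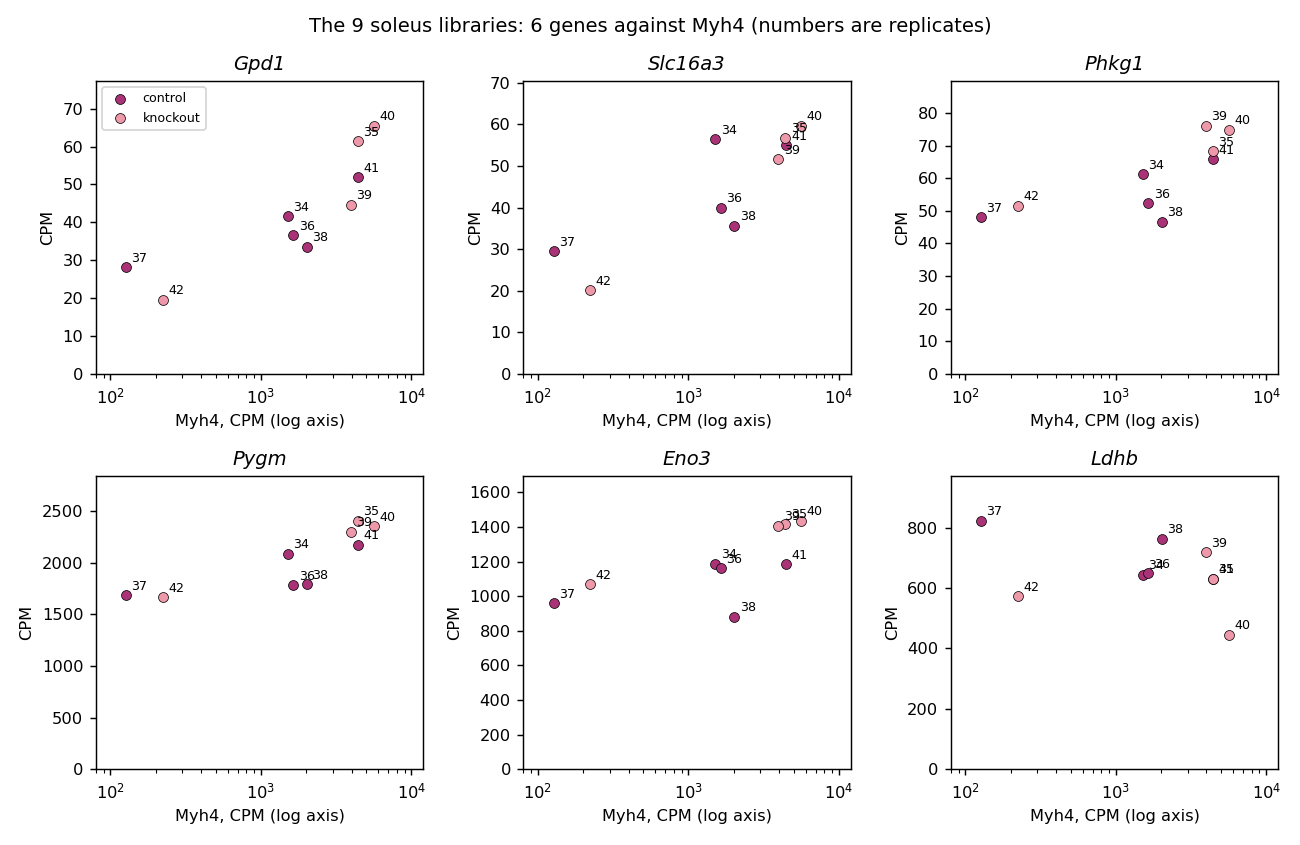
Levels (CPM) of 6 genes against Myh4 (CPM, log axis) in the 9 soleus libraries, numbered by replicate, dark points for controls and light points for knockouts. Gpd1 and Slc16a3 are lowest in control 37 and knockout 42, the libraries with Myh4 at 127 and 223.

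The knockout effects in the 2 muscles were compared directly as an interaction. No member was called (0.0703% of all 18494 genes were), 2 had an unadjusted p under 0.05 (5.4% of all genes), and DESeq2 also called 0. Those 2 were Phkg1, with a difference (soleus effect minus gastrocnemius effect) of 0.35 ± 0.15, and Aldoa, with 0.32 ± 0.14. For Slc16a3 the difference was 0.55 ± 0.36 (adjusted p = 0.985), so its call in the gastrocnemius was not shown to differ from the soleus. For Gyg it was 0.05 ± 0.11. Slc2a3 had a difference of 1.13 ± 0.27, with an adjusted p of 0.219.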

How the data were processed

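RNA depleted of ribosomal RNA was sequenced from 18 muscle samples. For each library the authors deposited gene counts with CPM and RPKM values, made with STAR 2.5.1a and featureCounts 1.4.6-p5 on GRCm38 per the submitters' processing notes. The strand setting, the annotation and how multi-mapped reads were handled: not given in the sources used here. Both CPM and RPKM, as deposited, were recomputed from the deposited counts to within 4.9e-10 and 4.7e-10, and only the counts were tested. Symbols came from GENCODE mouse release 21 and promoter windows from RefSeq.

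Counts were fitted with edgeR 4.0.16 in R 4.3.3 (TMM, filterByExpr with minimum count 10 and minimum total 15, robust quasi-likelihood test, Benjamini-Hochberg over all genes, threshold 0.05). Each knockout comparison used the libraries of its muscle, and the muscle and difference comparisons used all 18. The fit was tested on simulated data with planted fold changes larger than those of the members called in the knockout comparisons. That test does not cover calls of such small size. Alternatives were DESeq2 1.42.0, limma 3.58.1 with voom, other scalings, no filter, another choice of libraries and leaving out each library. The 34 genes and the other lists were chosen with earlier results of these data known. Values in every library are given for members called in a knockout comparison, the 10 with the largest difference between muscles and isoform pairs. Other pathway genes are named where called in a knockout comparison or among the 6 with the largest difference between muscles. Other members and libraries were singled out after their values were seen. No 2 libraries of a group were alike to within sampling noise.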

Additional observations from a re-analysis of the deposited data

Results flagged for a closer look

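In 136 groups of 4 or 5 values of member genes, 15 values lay far from the rest of their group by Dixon's test at the 95% level, and chance flags about 1 in 20. In gastrocnemius control 3, Aldoa was low at 11458 CPM (other controls 13523 to 14318), Gapdh at 5469 (6185 to 6438) and Pygm at 8487 (9199 to 9394). In gastrocnemius knockout 2, Aldoa was low at 11025 CPM (other knockouts 13033 to 13161) and Pkm at 2461 (3065 to 3130), while Ppp1r3c was high at 885 (185 to 243). Both libraries are among the 3 of high Ttn share. Hk2 was low in gastrocnemius knockout 7, at 431 CPM against 604 to 612. Gyg was high in gastrocnemius knockout 9, at 209 CPM against 172 to 177, and Phkb was high in gastrocnemius control 8, at 408 against 340 to 358. In soleus control 34, Hk2 was high at 939 CPM (620 to 707) and Pfkp at 11.4 (7.37 to 8.38). In soleus control 41, Pfkfb3 was high at 40.0 CPM against 15.5 to 20.8. In soleus knockout 42, the library of low Myh4, Eno3 was low at 1070 CPM (1407 to 1435) and Pygm at 1665 (2302 to 2408). In soleus knockout 40, Slc2a4 was low at 329 CPM against 392 to 397.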

How the results depend on the processing

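Between control muscles, 24 of the 30 members called were called in the same direction in all 25 alternatives, and Eno1, Gyg, Hk2, Pfkl, Slc2a4 and Ugp2 were not. The number called ran from 27 to 31, also when 1 library was left out. With library totals in place of TMM, Slc2a4 changed sign to 0.01 and Pfkfb1 to 0.10, and the median of all genes moved to 0.35. In the gastrocnemius knockout comparison, 2 members were called, DESeq2 called 4, and leaving out 1 library gave 0 to 7. Over all genes DESeq2 called 1235 there, against 619. In the soleus knockout comparison the 0 members called became 1 with DESeq2, which called 166 of all genes against 10, and no filter gave 48. For the difference of effects 0 members were called in every alternative, while over all genes DESeq2 called 52 against 13. The cause was not tested. No paired analysis was run, because the groups share no replicate numbers and no label ties a soleus to a gastrocnemius library. A pairing by the order of the titles was not tested. With 4 or 5 libraries a group, the call of a small difference such as that of Gyg can be lost by leaving out 1 library. In the gastrocnemius knockout comparison the log2 fold change of Gyg stayed between -0.38 and -0.26 over 16 alternatives.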
